A study of Homo sapiens and Mus musculus with 16 samples.

Results

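The genes described here are the mRNAs of SK-HEP-1 cells that were measured after both 2 and 4 h of treatment with the ethanol extract of Antrodia cinnamomea fruiting bodies (AcFBE). They were chosen as the genes with at least 1 FPKM (fragments per kilobase of exon, scaled to the mapped fragments of the library) in the treated library of 2 h (2T) and in that of 4 h (4T), and this rule took 4655 of the 22314 genes listed. The rule used the level in both libraries and not the difference between them. SK-HEP-1 is an established human line derived from a liver adenocarcinoma and grown in DMEM with 10% fetal bovine serum. Cells of 2T and 4T received 0.5 mg/ml AcFBE, and the untreated cells 2U and 4U received DMSO for 2 and 4 h. No allele was altered in any group. The mRNA data hold 1 library for each condition, out of 16 samples in the series, so no spread between replicates is known and no p-value is given. A gene is said below to be 2-fold higher or lower as a description of these 2 libraries.

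AcFBE is a mixture of triterpenoids and other constituents of a medicinal mushroom used for liver disorders. The cells received the whole mixture, and which constituents act was not tested. The level of an mRNA is set by its synthesis and its decay. The mRNAs of immediate early and stress genes are typically short-lived and can turn over within hours, whereas those of ribosomal proteins, glycolytic enzymes and the cytoskeleton are usually abundant and long-lived. A comparison of 2 time points under continued treatment therefore shows which mRNAs still differed after the first hours and which stayed at one level.

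The 4 mRNA libraries summed to between 786224 and 845681 FPKM, and 5000 to 5605 genes had at least 1 FPKM in each. The 10 most abundant genes took 23.3% to 26.3% of the sum. The mRNA table gives FPKM without reads per gene, and the read totals the study states for its libraries were not used here, so the number of reads behind a value is not known. Values above 0 began at 0.2 FPKM in 4T but at 0.0001 in 2T, so low values were kept differently at the 2 times. Of 19 hepatocyte markers only SERPINA1, which encodes the protease inhibitor alpha-1-antitrypsin, reached 1 FPKM in both treated libraries, and 17 were listed at 0 in both. ENG, a coreceptor of TGF-beta in endothelial cells, was the only one of 12 endothelial markers to do so, and the other 11 were listed at 0 in both. Mesenchymal markers were represented by 6 of 12, with VIM, the intermediate filament protein vimentin, at 13625 and 11261 FPKM in 2T and 4T. CD68 was the only leukocyte marker of 12 among the members, and the 7 erythroid and platelet markers were at 0 in all 4 libraries. In RNA from whole cultures, fewer cells of a type and less RNA per cell cannot be told apart.

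Between 2 and 4 h of treatment most mRNAs stayed close to their level. The median log2 ratio of 4T to 2T was -0.08 (95% interval from the ranks of the genes -0.10 to -0.07), with 1988 genes higher and 2667 lower in 4T. This direction depended on the scaling, since the median was 0.048 with both libraries set to the same upper quartile. Centring the log2 ratios on their own trimmed mean gave 0.0039, a value near 0 by construction. In all, 3560 genes (76.5%) lay within 1.5-fold and 4380 (94.1%) within 2-fold. At least 2-fold higher were 111 genes, 2.38% of the members, and at least 2-fold lower were 164 genes, 3.52%. With the same upper quartile the counts were 144 higher and 109 lower, and after centring on the trimmed mean 135 and 121. At least 3-fold higher were 19 and lower 24, and at least 4-fold there were 5 in each direction. Across genes, Pearson's r of log2 FPKM between 2T and 4T was 0.98 (Spearman's rho 0.96).

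The untreated cells, measured at the same 2 times in libraries that the treated comparison does not share, moved more. Over the 4075 members that reached 1 FPKM in the untreated libraries too, the log2 ratio of 4 h to 2 h had an SD over genes of 0.50 under AcFBE and 0.94 in DMSO. Among these genes 65 (1.60%) were at least 2-fold higher and 138 (3.39%) at least 2-fold lower in 4T than in 2T. In DMSO the counts were 673 (16.5%) higher and 365 (8.96%) lower. Pearson's r of log2 FPKM across these genes was 0.98 between 2T and 4T and 0.94 between 2U and 4U, a description over genes that share a library. With 1 library per condition, a difference between the time courses and a difference between the quality of single libraries cannot be told apart.

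**Figure D1:**
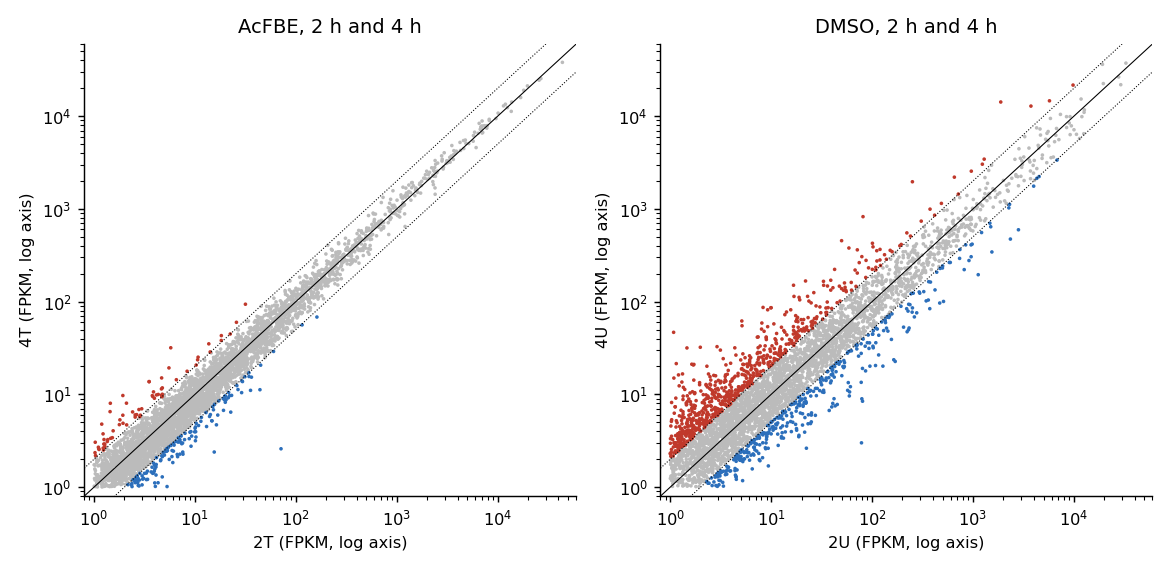
FPKM at 2 h (x axis) and 4 h (y axis), both on log axes, of the 4075 genes that reached 1 FPKM in every mRNA library, under AcFBE on the left and DMSO on the right. Each point is a gene, red where at least 2-fold higher and blue where at least 2-fold lower at 4 h, the solid line marks equal levels and the dotted lines 2-fold. The treated points lie closer to the line, with 65 red and 138 blue against 673 and 365 in DMSO.

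The spread depended on the level above 2 FPKM. Among genes with a geometric mean of 1 to 2 FPKM, a group bounded by the limit of 1 FPKM in both libraries, the SD of the log2 ratio of 4T to 2T was 0.53 and 8.199% of 744 genes were past 2-fold. Among genes with a geometric mean of 2 to 5 FPKM the SD was 0.63, and 10.4% of 1142 genes were past 2-fold. From 100 to 1000 FPKM the SD was 0.34 and 0.438% of 457 genes were past 2-fold. Above 1000 FPKM it was 0.22 and none of 129 genes was. The untreated ratio narrowed less, to an SD of 0.74 above 1000 FPKM, where 14.7% of the same 129 genes were past 2-fold. Only 11 of the 111 genes higher in 4T and 17 of the 164 lower ones had at least 10 FPKM in both libraries, out of 1873 such genes. Most of the genes past 2-fold were thus at low levels, with a median of 1.72 FPKM in 2T and 4.72 in 4T for the higher and 5.997 and 2.42 for the lower ones.

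**Figure D2:**
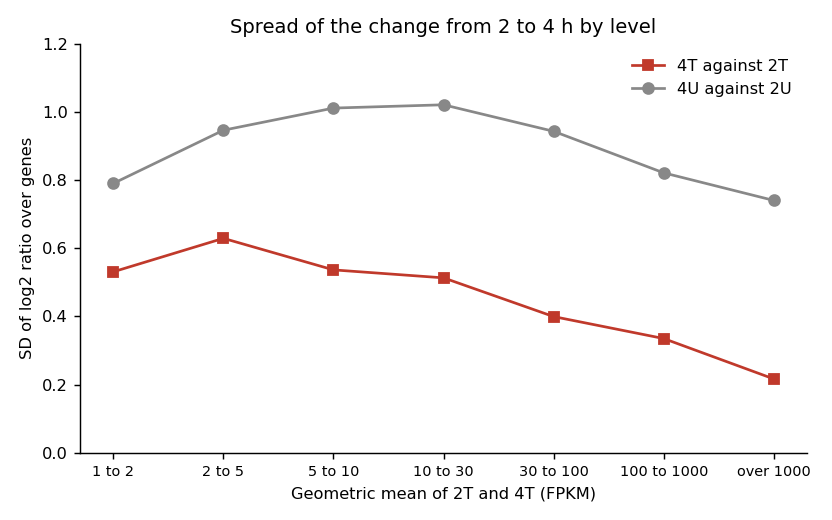
SD over genes of the log2 ratio of 4 h to 2 h (y axis) for genes grouped by the geometric mean of 2T and 4T in FPKM (x axis). Red squares are the treated libraries and grey circles the untreated ones. The treated SD goes from 0.63 at 2 to 5 FPKM to 0.22 above 1000 FPKM, below the untreated SD in each group. The untreated SD covers only the genes of a group that also reached 1 FPKM in both untreated libraries. These were 431 of 744 genes at 1 to 2 FPKM and all 129 above 1000 FPKM.

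Of 3 features of the transcript, its base composition moved with the ratio most clearly. Length, GC content and number of exons were taken from the Ensembl canonical transcript of each gene, found for 4531 members (97.3%). The log2 ratio of 4T to 2T fell with GC content, with a Spearman's rho of -0.48 (Pearson's r -0.44), while rho was -0.04 with transcript length and -0.13 with the number of exons. These are descriptions over genes, which share the libraries and their base composition. The genes were put into 5 groups of equal size by GC content. In the lowest group, of 30.7% to 43.4% GC, the median log2 ratio was 0.20, and 48 genes were 2-fold higher and 9 lower. In the highest, of 59.95% to 74.4%, the median was -0.43, with 7 higher and 75 lower. The median in the middle group was -0.06. The same order held in each of the 5 groups of transcript length, with medians from 0.38 to -0.42 in the shortest transcripts and from 0.13 to -0.34 in the longest.

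The untreated libraries had the opposite trend, with a rho of 0.28 between GC content and the log2 ratio of 4U to 2U over 3982 genes, against -0.50 for the treated ratio over the same genes. Their medians were -0.14 in the lowest and 0.48 in the highest group of GC content. In level, the genes of lowest GC content had a median of 9.26 FPKM in 2T and 10.7 in 4T, and of 5.37 and 5.10 in the untreated libraries. Those of highest GC content had 7.89 FPKM in 2T and 5.85 in 4T, and 9.14 and 13.0 untreated. Spearman's rho of log2 level with GC content was -0.04 in 2T and -0.14 in 4T, and 0.09 and 0.21 in 2U and 4U. The part of base composition in library making, sequencing or the response of the cells was not tested, and with 1 library each these cannot be told apart.

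**Figure D3:**
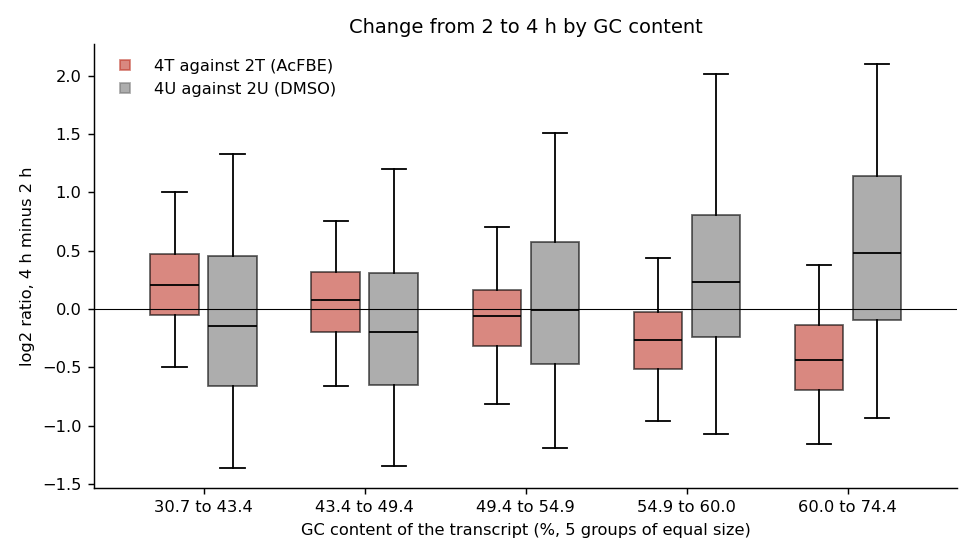
Log2 ratio of 4 h to 2 h (y axis) in 5 groups of transcript GC content in percent (x axis), for the treated libraries in red and the untreated ones in grey. Boxes span the middle of the genes from the 25th to the 75th percentile with the median as a line, and whiskers the 5th to the 95th. The treated boxes hold 4531 genes, and the untreated ones the 3982 of these that reached 1 FPKM in all 4 libraries. The treated medians go from 0.20 down to -0.43. The untreated medians are -0.14 in the lowest group, -0.20 in the next and 0.48 in the highest.

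The difference in composition can be read from the genes themselves. From the 24 genes with the largest changes described below, 60 bases of coding sequence are shown for the genes of lowest and highest GC content, from the longest coding exon at the place closest to the GC content of the whole transcript. G and C are in capitals and the sequences run 5′ to 3′ on the strand of the gene, from GRCh37. TPRKB, 2-fold higher in 4T (exon 4, chr2:73957714-73957773, minus strand), and EEF1E1, lower in 4T (exon 2, chr6:8097609-8097668, minus strand), had transcripts of 35.7% and 36.4% GC. TMEM222 (exon 1, chr1:27648773-27648832, plus strand) and MGAT4B (exon 11, chr5:179225928-179225987, minus strand), both lower in 4T, had 61.6% and 62.6%. EEF1E1 is an exception to the trend, a transcript of low GC content that was lower at 4 h.
TPRKB: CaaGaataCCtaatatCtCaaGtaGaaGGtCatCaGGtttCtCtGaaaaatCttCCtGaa
EEF1E1: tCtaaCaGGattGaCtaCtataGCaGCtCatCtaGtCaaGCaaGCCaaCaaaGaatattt
TMEM222: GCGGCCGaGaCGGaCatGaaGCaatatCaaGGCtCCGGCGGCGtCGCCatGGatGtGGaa
MGAT4B: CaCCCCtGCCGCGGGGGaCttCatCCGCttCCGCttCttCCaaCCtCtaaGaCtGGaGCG

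To see which changes went beyond this trend, each ratio was also centred on the median of the members in the same twentieth of GC content, a calculation added after the trend was seen. The SD over genes was then 0.46, and 107 genes (2.36%) were at least 2-fold higher and 88 (1.94%) at least 2-fold lower than genes of like composition. Of the 105 higher genes that had a transcript, 74 stayed past 2-fold, and of the 159 lower ones 76. The genes 2-fold lower had a median GC content of 58.9% and those higher of 43.8%, against 52.1% for all members. Below, this value is called the GC-centred log2 ratio.

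The largest increases among genes with at least 10 FPKM in both libraries were led by ATP5J, a subunit of the mitochondrial ATP synthase, on chromosome 21 (27088815 to 27107984). Its level was 31.6 FPKM in 2T and 93.8 in 4T, and 40.6 and 32.1 untreated. The 4T library stood alone, 2.96-fold above 2T (log2 ratio 1.57, GC-centred 1.37). USMG5, a small protein of the same enzyme, was at 45.2 FPKM in 2T and 89.2 in 4T, just short of 2-fold, with 55.0 and 46.4 in 2U and 4U.

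PLAU, the urokinase-type plasminogen activator that starts pericellular proteolysis, was at 25.8 FPKM in 2T and 59.9 in 4T. Untreated it was at 132 FPKM at 2 h and 105 at 4 h, so that the treated cells at 4 h lay between the level at 2 h of treatment and that of untreated cells. SERTAD1, a regulator of CDK4 and E2F activity, had the same order, with 18.2 and 38.1 FPKM treated and 61.5 and 49.8 untreated. EIF1, which selects the start codon in translation, was at 207 FPKM in 2T and 406 in 4T, against 846 in 2U and 409 in 4U, so the treated and untreated levels met at 4 h. Its paralog EIF1B doubled from 14.2 to 28.7 FPKM, above the untreated 19.8 and 15.6. SMAGP, a small transmembrane adhesion protein, went from 18.3 FPKM in 2T to 43.0 in 4T while it was at 71.3 in 2U and 36.1 in 4U.

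The other genes of this set rose to levels above both untreated libraries. ARMCX6, a member of an X-linked armadillo repeat family, was at 13.7 FPKM in 2T and 35.1 in 4T, with 5.99 in 2U and 8.25 in 4U. RPL22L1, a paralog of a ribosomal protein of the large subunit, was at 10.7 and 25.2 FPKM, with 16.6 and 11.3 untreated. NASP, a chaperone of histones H1 and H3, was at 10.6 and 23.6 FPKM, whereas untreated it went from 12.4 to 5.57. HNRNPD, the AU-rich element binding protein AUF1, likewise went from 22.4 to 44.8 FPKM under AcFBE and from 39.4 to 16.3 in DMSO. For both, then, the treated and untreated levels moved 2-fold in opposite directions. TPRKB, a subunit of a tRNA-modifying complex, moved 2-fold upward in both time courses, from 10.3 to 20.7 FPKM treated and from 6.50 to 13.0 untreated. After centring on GC content 7 of these 12 genes were still past 2-fold.

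**Figure D4:**
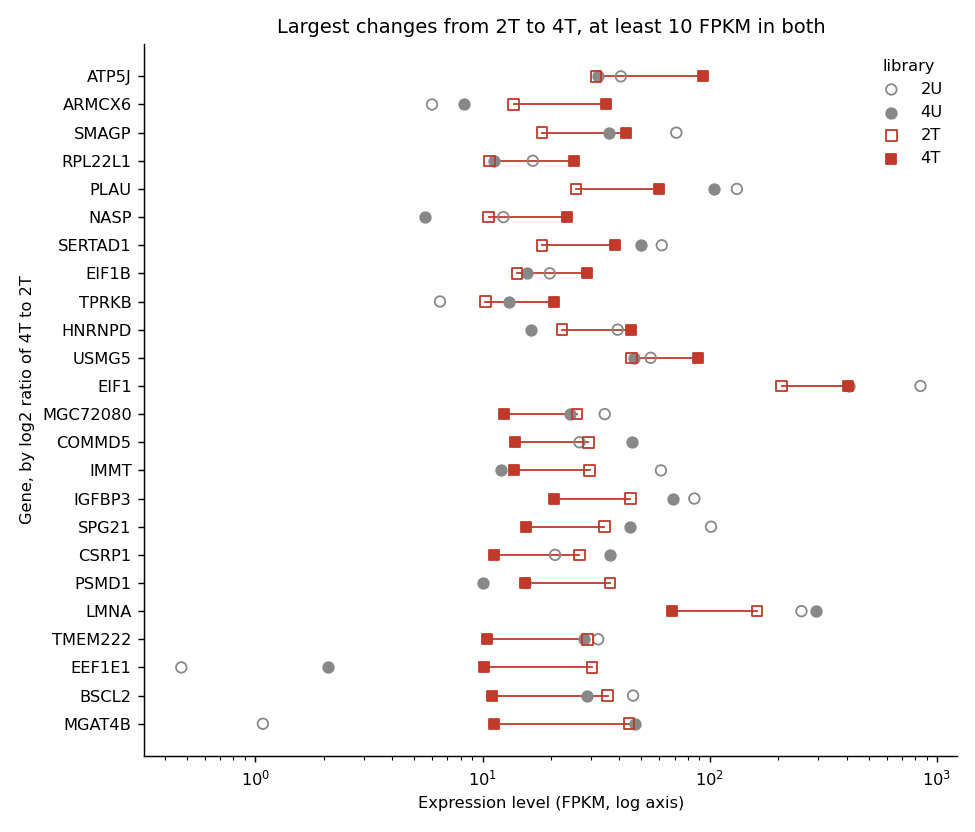
Level in FPKM (x axis, log scale) in the 4 mRNA libraries of the 12 genes with the highest and the 12 with the lowest ratio of 4T to 2T among genes with at least 10 FPKM in both, ordered by that ratio (y axis). Open and filled squares are 2T and 4T, joined by a line, and open and filled circles 2U and 4U. PLAU and SERTAD1 at 4T sit between 2T and the untreated libraries, whereas ATP5J at 93.8 FPKM sits above all 3 others and LMNA at 68.2 FPKM below them.

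The largest decreases were led by MGAT4B, a Golgi enzyme that branches N-glycans, on chromosome 5 (179224597 to 179233952). Its level was 44.1 FPKM in 2T and 11.2 in 4T, and 1.08 and 46.7 at the same times in DMSO. It was thus 3.92-fold lower at 4 h under AcFBE (log2 ratio -1.97, GC-centred -1.56), while the untreated library of 2 h was the lowest of all. EEF1E1, a scaffold of the multi-tRNA synthetase complex, was at 30.3 FPKM in 2T and 10.2 in 4T, above 0.472 in 2U and 2.09 in 4U. Its GC-centred log2 ratio of -1.85 was larger in size than the plain one of -1.57.

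LMNA, which encodes the nuclear lamins A and C, was the most abundant gene of this set. Its level was 162 FPKM in 2T and 68.2 in 4T, against 253 in 2U and 294 in 4U, and so moved away from the untreated level (log2 ratio -1.24, GC-centred -0.83). IGFBP3, a secreted binding protein of insulin-like growth factors, had the same pattern, with 44.8 and 20.7 FPKM treated and 85.5 and 69.2 untreated. BSCL2, the lipid droplet protein seipin, was at 35.6 FPKM in 2T and 11.1 in 4T, with 46.0 and 28.7 untreated. TMEM222, a transmembrane protein, was at 29.0 and 10.4 FPKM, with 32.3 and 28.0 untreated. CSRP1, a LIM domain protein of the actin cytoskeleton, went from 26.7 to 11.3 FPKM under AcFBE and from 20.9 to 36.5 in DMSO. In these 5 genes 4T was the lowest of the 4 libraries.

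The other genes of the set differed in their untreated levels. SPG21, a protein of endosomes and lysosomes, was at 34.3 FPKM in 2T and 15.6 in 4T, and at 101 in 2U and 44.5 in 4U. IMMT, the mitochondrial inner membrane organiser mitofilin, was at 29.6 and 13.7 FPKM, and at 61.0 and 12.1 untreated. PSMD1, a scaffold subunit of the regulatory cap of the proteasome, was at 36.3 and 15.3 FPKM, and at 15.5 and 10.1 untreated. For IMMT and PSMD1 the lowest library was thus 4U, and for SPG21 it was 4T. COMMD5, a COMM domain protein, had 29.2 FPKM in 2T and 13.9 in 4T, with 26.7 and 45.3 untreated. The uncharacterised MGC72080 had 26.0 and 12.4, with 34.5 and 24.4 untreated. In COMMD5 and MGC72080, too, 4T was the lowest library. After centring, 9 of the 12 were still past 2-fold. LMNA and COMMD5 fell short, and MGC72080 had no known GC content and could not be centred.

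Of the members with 1 to 10 FPKM in both treated libraries, the highest ratios were those of C11orf1, annotated as the cilia-associated CFAP68 (1.45 to 8.02 FPKM), PIGF, an enzyme of GPI anchor synthesis (1.93 to 9.72 FPKM), TMEM126B, an assembly factor of mitochondrial complex I (1.44 to 6.52 FPKM), and MLLT10, a chromatin reader (1.19 to 4.78 FPKM). The untreated levels of these 4 genes lay between 2.88 and 4.09 FPKM at both times, so 2T was the lowest library and 4T the highest. All 4 stayed past 2-fold after centring. The lowest ratios were those of NUDT8, a nucleotide hydrolase (5.29 to 1.01 FPKM), CYBA, a subunit of NADPH oxidase (5.96 to 1.49 FPKM), the noncoding LOC100506581 (4.05 to 1.02 FPKM) and PORCN, which acylates Wnt proteins (4.31 to 1.11 FPKM). At these levels 1 FPKM was also the limit for inclusion, and single-gene values carry the widest spread.

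A few larger ratios fell outside these sets, and these genes were chosen after their values were seen. TMSB4X, the actin-sequestering thymosin beta-4, was at 5.76 FPKM in 2T and 31.8 in 4T, with 2.30 in 2U and 6.07 in 4U, and has many near-identical pseudogenes that can share its reads. PSMC3IP, a factor of meiotic recombination, and ST20 were the lowest apart from the readthrough locus RBM14-RBM4, whose exons overlap those of its neighbours. Log2 ratios of 4T to 2T were -4.78 for RBM14-RBM4, -3.78 for PSMC3IP and -2.70 for ST20.

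The genes past 2-fold under AcFBE went in both directions in DMSO. Of the 65 higher genes that reached 1 FPKM in every mRNA library, 9 (13.8%) were also 2-fold higher in 4U than in 2U and 9 (13.8%) were 2-fold lower. Of the 138 lower genes 16 (11.6%) were 2-fold lower in DMSO and 36 (26.1%) were 2-fold higher. Over all 4075 genes the shares in DMSO were 16.5% higher and 8.96% lower. Over the same 4075 genes the log2 ratios of the treated and untreated time courses had a Pearson's r of -0.11 (Spearman's rho -0.13). TARBP2, the double-stranded RNA binding partner of Dicer, was at 22.6 FPKM in 2T and 6.44 in 4T but at 14.1 in 2U and 34.7 in 4U. CHID1, a chitinase-domain protein, was at 16.8 and 5.98 FPKM treated and at 2.31 and 20.1 untreated, and NDUFC1, an accessory subunit of complex I, at 2.41 and 6.47 treated and 5.44 and 2.02 untreated. CHID1 was singled out after its values were seen.

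Groups of genes were compared by the number of members past 2-fold and by their median log2 ratio, beside the median of all members of -0.08 and the shares of all members past 2-fold, 2.38% higher and 3.52% lower. Centring the log2 ratios on their trimmed mean adds 0.09 to each, and setting both libraries to the same upper quartile adds 0.13. Setting them to the same sum of FPKM takes 0.07 away, so medians nearer to 0 than these shifts have no fixed sign.

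The cytosolic ribosomal proteins, the structural proteins of the ribosome, were the largest group with a shared direction. Of 81 members 69 were higher and 12 lower in 4T, with a median log2 ratio of 0.19 (GC-centred 0.23, with 74 above 0), and RPL22L1, a paralog and not a core subunit, was the only one past 2-fold. Among the abundant ones RPS3 was at 19712 FPKM in 2T and 21199 in 4T. Larger ratios were those of RPS27 with 731 and 1331 FPKM, RPS15A with 916 and 1569, and RPL34 with 109 and 184. In DMSO the median of the same genes was -0.35. The sum over the listed genes was 290056 FPKM in 2T and 314827 in 4T, and 327062 and 324976 untreated. These sums take in RPL10 and FAU, listed at 0 in both libraries of 2 h but at 1575 and 1959 FPKM in 4T. They also take in RPL17, at 0 in 2T and 433 FPKM in 4T, so no change between the times is read from the sums.

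Proteins of the mitochondrial ribosome and the respiratory chain moved by a like amount. The median over 70 mitochondrial ribosomal proteins was 0.11 (GC-centred 0.16), with 47 higher and 23 lower. MRPL1 went from 2.01 to 5.44 FPKM and MRPL33 from 4.71 to 9.43, and these were the 2 past 2-fold. Over 74 respiratory chain genes the median was 0.11 (GC-centred 0.13), with ATP5J and NDUFC1 2-fold higher. ATP5SL, the only one 2-fold lower, at 16.3 FPKM in 2T and 4.69 in 4T, carries the name of the ATP synthase but is an assembly protein of complex I. ATP5B, the catalytic beta subunit, was at 3254 FPKM in 2T and 3246 in 4T. In DMSO the medians of the mitochondrial ribosomal proteins and the respiratory chain were -0.24 and -0.21.

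Translation factors had a median of 0.03 over 47 members. EIF4E, which binds the mRNA cap, was 2-fold higher (1.62 FPKM in 2T and 4.63 in 4T) together with EIF1B, and EEF1E1 was 2-fold lower. Among the abundant ones EEF1G, an elongation factor subunit, was at 5789 and 6170 FPKM, and EIF6, which keeps ribosomal subunits apart, at 3296 and 3276. Of 19 aminoacyl-tRNA synthetases, which charge tRNAs, CARS was 2-fold lower with 8.78 FPKM in 2T and 3.33 in 4T, and WARS close to it with 13.5 and 6.83. Nucleolar factors of ribosome assembly had a median of -0.07 over 19 members. MYBBP1A, a nucleolar regulator, went from 2.99 to 1.06 FPKM, while FBL, the rRNA methyltransferase fibrillarin, was at 1158 and 1148.

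The protein quality control genes were within 2-fold apart from PSMD1. Over 38 proteasome subunits the median was 0.06, with PSMB4 at 1567 FPKM in 2T and 1634 in 4T. All 6 members of the CCT chaperonin, which folds actin and tubulin, were slightly higher in 4T, with a median of 0.12 and log2 ratios from 0.06 to 0.54. Centred on GC content their median was -0.02. In DMSO 5 of the 6 were 2-fold lower at 4 h, with a median of -1.24. CCT6A, for example, was at 88.6 FPKM in 2T and 113 in 4T but at 80.3 in 2U and 19.1 in 4U. Among 6 ubiquitin genes the median was 0.11, UBB being at 7003 and 7844 FPKM.

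Cytosolic heat shock chaperones had a median of -0.22 over 15 members (GC-centred -0.08), none past 2-fold. HSPA1A, an inducible HSP70, was at 21.1 FPKM in 2T and 11.9 in 4T, and at 2347 in 2U and 473 in 4U. HSPA1B, nearly identical to it in sequence so that reads can be shared, was at 14.6 and 9.82 FPKM, and at 1539 and 343 untreated. Both stayed low in the treated libraries, while the untreated level differed 2-fold or more between the times. HSPA8, the constitutive HSC70, was at 1850 FPKM in 2T and 2148 in 4T, and BAG3, a cochaperone, at 3.72 and 5.59.

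Chaperones of the endoplasmic reticulum and genes of the unfolded protein response had a median of -0.09 over 13 members, none past 2-fold, with HSPA5, the chaperone BiP, at 50.7 and 52.9 FPKM. HERPUD1, a factor of ER-associated degradation, was at 5.48 FPKM in 2T and 8.32 in 4T, against 164 in 2U and 23.6 in 4U. ATF4, the transcription factor of the integrated stress response, and its targets together had a median of -0.10 over 10 members (GC-centred 0.15). SLC7A5, an amino acid transporter, was 2-fold lower with 3.59 and 1.79 FPKM. ATF4 itself was at 230 FPKM in 2T and 310 in 4T.

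The list of targets of NRF2, the regulator of antioxidant genes, also held NRF2 itself (NFE2L2) and its inhibitor KEAP1. It had a median of -0.01 over 15 members (GC-centred 0.19). HMOX1, the inducible haem oxygenase, was 2-fold lower with 3.30 FPKM in 2T and 1.42 in 4T, as was OSGIN1, a growth inhibitor, with 2.17 and 1.06. TXN, thioredoxin, was at 265 and 421 FPKM and PRDX1, a peroxiredoxin, at 2397 and 3323, both higher by less than 2-fold. FTL, the ferritin light chain, was at 18098 and 19004 FPKM in 2T and 4T, and at 1883 and 14208 in 2U and 4U. The metallothioneins, which bind zinc and copper, had a median of 0.26 over 10 members, 7 of them higher. MT1B, at 1.18 and 3.43 FPKM, was the only one past 2-fold, and MT2A, the most abundant, was at 6551 FPKM in 2T and 8362 in 4T. Metallothionein genes are close in sequence, so reads could be split among them.

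The immediate early transcription factors, which respond to growth factors and stress within minutes, had 10 members of 25 listed genes. Their median was 0.27 (GC-centred 0.57), while the summed level of the listed genes was 629 FPKM in 2T and 447 in 4T, so the median and the sum differ in direction. The sum was set by FOSL1, an AP-1 subunit, at 532 FPKM in 2T and 324 in 4T, and at 2134 in 2U and 1149 in 4U. JUND, another AP-1 subunit, was the only one past 2-fold, from 1.23 to 3.75 FPKM, with 16.9 and 11.4 untreated. IER3, a survival factor, was at 54.6 and 73.9 FPKM and MYC at 15.3 and 11.6. The untreated sums were 2457 FPKM at 2 h and 1862 at 4 h. No mRNA decay factor of the early response reached 1 FPKM in both treated libraries, and DUSP1, a MAP kinase phosphatase, was at 4.33 and 2.53 FPKM treated against 227 and 79.1 untreated.

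Genes of the MAPK and PI3K pathways that the study names, a list drawn up on these samples and so no independent evidence of a direction, had a median of -0.38 over 15 members, with 11 lower in 4T. The median was -0.12 after centring on GC content, these transcripts having a median of 57.3% GC. AKT1, a central kinase of the PI3K pathway, was the only one past 2-fold, at 5.91 FPKM in 2T and 2.13 in 4T, and at 12.3 in 2U and 19.4 in 4U. HRAS, a small GTPase upstream of both pathways, was at 49.7 and 26.5 FPKM treated and at 84.1 and 72.0 untreated. MAP2K2, the kinase MEK2, was at 13.1 and 8.79 FPKM treated and at 19.8 and 49.9 untreated.

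Among apoptosis genes no member of the BCL2 family or of the caspases and apoptosome was past 2-fold. The BCL2 family had a median of -0.25 over 8 members (GC-centred 0.05), with BAX, a pore-forming effector, at 10.7 FPKM in 2T and 7.38 in 4T and BAD, a sensitiser, at 69.7 and 63.3. CFLAR, which restrains caspase-8, had the highest ratio of the caspase list, at 12.4 and 23.8 FPKM, and CYCS, cytochrome c, was at 9.17 and 12.9. Targets of p53 had a median of -0.24 over 11 members (GC-centred -0.04). CDKN1A, the cell cycle inhibitor p21, was at 20.9 FPKM in 2T and 30.7 in 4T, and at 193 in 2U and 89.1 in 4U. Genes of the NF-kB pathway had a median of -0.19 over 10 members (GC-centred 0.19), with NFKBIA, its inhibitor, at 2.81 and 5.55 FPKM, just short of 2-fold.

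Interferon response genes had a median of -0.17 over 6 members (GC-centred 0.03), and ISG20, an exonuclease, was 2-fold lower with 5.34 FPKM in 2T and 2.48 in 4T. IFITM2, an antiviral membrane protein, was at 2531 and 2556. The 6 hypoxia targets had a median of -0.30, with P4HA2, a collagen prolyl hydroxylase, 2-fold lower at 7.54 and 2.99 FPKM. In glycolysis, 14 of 15 enzymes were within 2-fold and the median was -0.20 (GC-centred -0.01). HK1, the hexokinase, was lower, at 10.2 FPKM in 2T and 3.47 in 4T, while GAPDH was at 43767 and 38022 and ENO1, enolase, at 12475 and 12339. PKM2, the pyruvate kinase, was at 1209 FPKM in 2T and 646 in 4T, against 2304 and 1118 untreated. The 17 TCA cycle enzymes had a median of 0.03 (GC-centred -0.02), none past 2-fold, the largest difference being in IDH3G, an isocitrate dehydrogenase subunit, at 90.6 and 47.5 FPKM. Enzymes of cholesterol synthesis had a median of 0.02 over 11 members (GC-centred 0.37). LSS, lanosterol synthase, was at 5.07 and 2.64 FPKM and FDFT1, squalene synthase, at 37.8 and 51.1.

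The G1/S genes had a median of -0.11 over 18 members. CDT1, a licensing factor of replication, was 2-fold lower with 5.28 FPKM in 2T and 2.59 in 4T, while PCNA, the sliding clamp, was at 215 and 217. The 19 mitotic genes had a median of 0.06, none past 2-fold. UBE2C, which works with the anaphase-promoting complex, was at 159 FPKM in 2T and 277 in 4T, and CCNB1, cyclin B1, at 528 and 617. Splicing proteins of the SR and hnRNP families had a median of 0.16 over 34 members (GC-centred 0.05). HNRNPD was the one 2-fold higher, and HNRNPA1P10, a pseudogene whose reads cannot be told from those of HNRNPA1, was the one 2-fold lower, at 22.7 and 6.91 FPKM against 60.6 and 109 for HNRNPA1. Of the 5 members of miRNA processing and decay TARBP2 was past 2-fold and XRN2, an exonuclease, was at 6.94 and 6.08 FPKM. DROSHA, at 1.21 FPKM in 2T and 0.82 in 4T, and DICER1, at 0 in all 4 libraries, were not members.

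Tubulins, the subunits of microtubules, had a median of -0.10 over 10 members, with TUBA1B at 7105 FPKM in 2T and 6669 in 4T. Targets of SRF and actin genes had a median of 0.02 over 18 members, TMSB4X being the one past 2-fold. TPM2, a tropomyosin, was at 832 and 529 FPKM and ACTG1, gamma-actin, at 2951 and 4029. Targets of YAP and TEAD had a median of 0.16 over 8 members, with CYR61, a matricellular protein, at 41.6 and 57.0 FPKM, and at 67.8 and 219 untreated. In the extracellular matrix list, PLAU was 2-fold higher and the median was -0.10 over 14 members. PLAUR, its receptor, was at 21.6 and 34.3 FPKM, FN1, fibronectin, at 12.8 and 6.54, and TIMP1, an inhibitor of metalloproteinases, at 2489 and 2449. SERPINA1 was at 17.0 and 8.59 FPKM and ENG at 14.1 and 8.65 in 2T and 4T.

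Zinc finger genes of the ZNF class had a median of -0.27 over 43 members, with 2 past 2-fold in each direction, and -0.01 after centring on GC content. ZNF226 was at 1.33 FPKM in 2T and 3.98 in 4T, and ZNF688 at 4.37 and 1.36. Of 17 histone genes 1 was 2-fold higher and 3 lower, with H3F3A, which has near-identical copies, at 20.3 and 8.74 FPKM and H2AFZ, a variant of H2A, at 2219 and 2775. Canonical histone mRNAs lack a poly(A) tail, and 50 of the 80 listed histone genes were at 0 in both treated libraries. The 7 long noncoding RNAs had a median of 0.36 (GC-centred 0.29), and GAS5, a host of small nucleolar RNAs, was at 129 FPKM in 2T and 182 in 4T. Of 9 small noncoding RNAs 3 were 2-fold higher, 2 of which, MIR1244-2 and MIR1244-3, are copies listed with identical values of 3.52 and 13.7 FPKM.

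**Figure D5:**
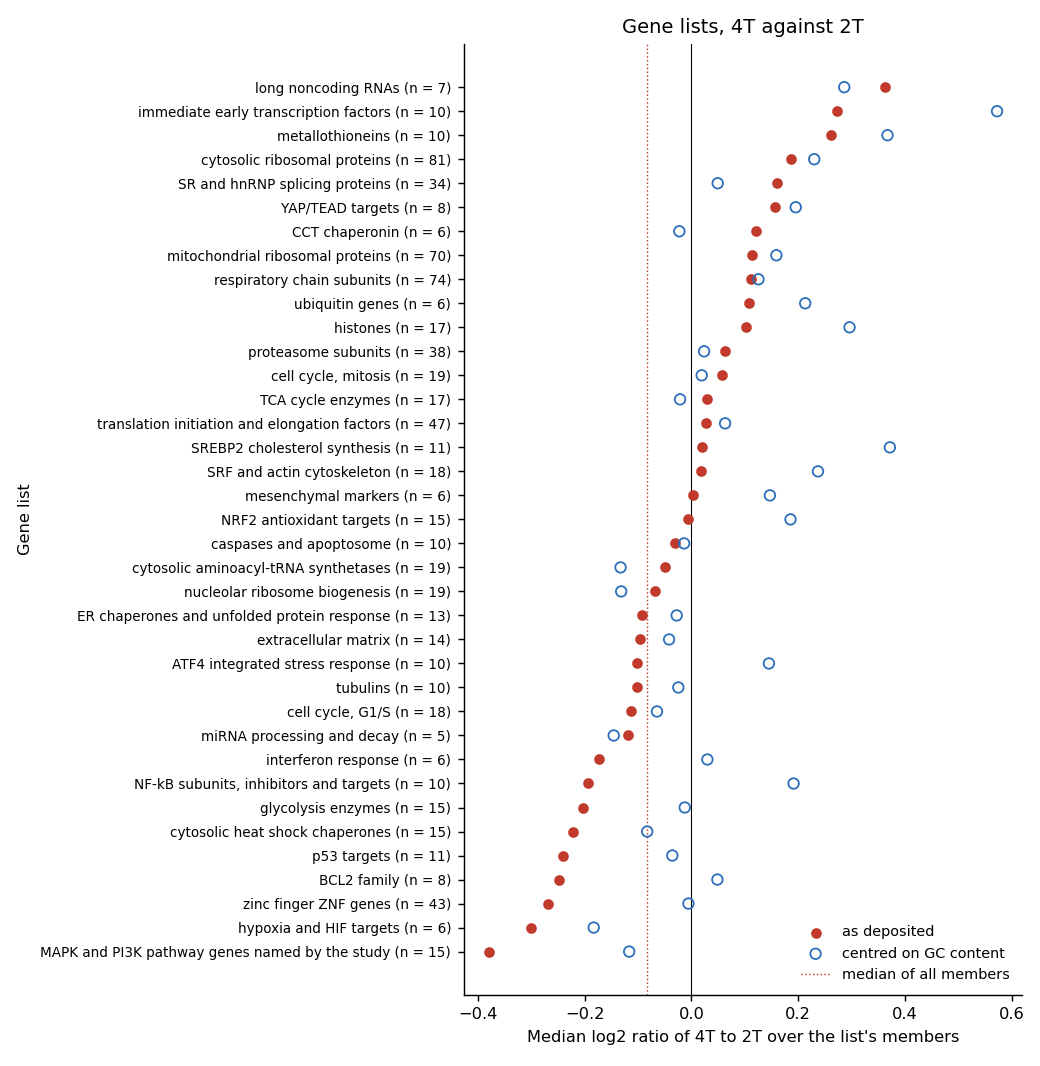
Median log2 ratio of 4T to 2T (x axis) of the gene lists (y axis, with the number of members). Red points are as deposited and open blue circles are centred on GC content. Lists with at least 5 members of known GC content are shown, which leaves out the small noncoding RNAs. The dotted line is the median of all members, -0.08. Cytosolic ribosomal proteins lie to the right at 0.19 and 0.23, while the zinc finger genes move from -0.27 to -0.01 with centring.

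Genes listed at 0 in one treated library were not members. At 0 in 2T but at 1 FPKM or more in 4T were 249 genes, 93 of them also at 0 in 2U, and 37 were at 100 FPKM or more in 4T, 22 of these also at 0 in 2U. The most abundant were TPI1, a glycolytic enzyme, FAU, a ribosomal protein fused to a ubiquitin-like domain, and RPL10, a ribosomal protein. TPI1 was at 3956 FPKM in 4T and 5818 in 4U, FAU at 1959 and 3258, and RPL10 at 1575 and 1484, and all 3 were listed at 0 in both libraries of 2 h. Genes that cells of every kind use were thus at 0 at 2 h in treated and untreated libraries alike, so that no change is read from such values. The reverse, at 0 in 4T and 1 FPKM or more in 2T, held for 8 genes, none of them at 10 FPKM. RTEL1, a helicase of telomeres, was the highest of these at 5.92 FPKM in 2T, followed by EGFR at 2.57 and SGSH, a lysosomal sulfatase, at 1.88.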

How the data were processed

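Polyadenylated RNA of SK-HEP-1 cells was sequenced on the SOLiD platform, with 1 library each for 2U, 2T, 4U and 4T. The authors deposited FPKM per gene, made with TopHat and Cufflinks against hg19 (GRCh37) per the submitters' notes. Tool versions and the gene annotation are not given in the sources used here, and the paper's methods describe amplified cDNA libraries. Small RNA tables were not used here. Log2 ratios of 4T to 2T were calculated without a pseudocount for genes with at least 1 FPKM in both libraries, and a change counted from 2-fold. Without replicates no test was made. GC content, length and exons are those of the Ensembl canonical transcript of GENCODE v44 mapped to GRCh37. The genes and the 44 gene lists were chosen with earlier results of these data known. Named were the 12 highest and 12 lowest ratios among genes with at least 10 FPKM in both libraries, the 4 highest and 4 lowest from 1 to 10 FPKM, in each list up to 4 members by ratio and 3 by level, and up to 3 genes at 0 each way, apart from an item not reported here. Alternatives covered the scaling, pseudocount, minimum level, fold, small RNAs and, added after the data were seen, GC content and a minimum in all 4 libraries. The calculations were tested on simulated data and run with Python 3.11.15, numpy 2.4.6, pandas 2.3.3, scipy 1.17.1 and matplotlib 3.10.9.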

Additional observations from a re-analysis of the deposited data

Results flagged for a closer look

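The trend with GC content had opposite signs in the 2 time courses, with a Spearman's rho of -0.50 for 4T against 2T and 0.28 for 4U against 2U over the same genes. Genes moved 2-fold in opposite directions in both ways: 9 were higher in 4T and lower in 4U, and 36 were lower in 4T and higher in 4U, each relative to 2 h. These are 13.8% of the 65 higher and 26.1% of the 138 lower genes, beside 8.96% lower and 16.5% higher in DMSO over all 4075 genes. Of the genes with the largest changes, NASP (log2 ratio of 4T to 2T 1.15, of 4U to 2U -1.15), HNRNPD (1.001 and -1.27) and MGAT4B (-1.97 and 5.43) were such genes. These differences rest on 1 library per condition and were not tested.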

How the results depend on the processing

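Centring the log2 ratios on their trimmed mean moved the median from -0.08 to 0.0039, near 0 by construction. The median changed sign when both libraries were set to the same upper quartile (0.048), and when every gene above 0 in both was used (0.088). It was -0.16 with the same sum of FPKM, -0.066 with a pseudocount of 1, -0.065 from 5 FPKM, -0.037 from 10 FPKM, -0.051 for genes with a mean of 1 FPKM and a pseudocount of 1, and -0.10 with 1 FPKM in all 4 libraries. The 111 genes higher and 164 lower became 51 and 74 with a pseudocount of 1, 16 and 42 from 5 FPKM, 11 and 17 from 10 FPKM, 1294 and 343 with no minimum, 238 and 99 by the mean with a pseudocount of 1, 382 and 713 at 1.5-fold, and 19 and 24 at 3-fold. The higher genes were 65 with 1 FPKM in all 4 libraries, and the lower ones 109 with the same upper quartile and 88 after centring on GC content. More genes were thus lower than higher as deposited. More were higher than lower with the same upper quartile (144 and 109) and after centring on the trimmed mean (135 and 121). With the same sum 89 were higher and 222 lower. Above 0 and under 0.2 FPKM were 1173 genes in 2T and 0 in 4T. With no minimum, a gene under 0.2 FPKM in 2T and above 0 in 4T could thus only be higher in 4T. The mean with a pseudocount of 1 also took in genes listed at 0 in 1 library. Genes at 0 in 2T and at 1 FPKM or more in 4T numbered 249, and 8 the other way. So no excess of higher genes is read from the median of 0.088 or the counts of these settings. Over genes from 10 FPKM, rho with GC content was -0.61. Of the list medians, 5 of 39 changed sign with the trimmed mean, 7 of 39 with the same sum, none with a pseudocount and 7 of 38 with GC centring. None of the genes named for the highest and lowest ratios reversed under these 4 settings. Genes named in the lists for their level can change sign, as EIF6 did from -0.0088 to 0.26 with GC centring. Leaving out a library was not possible, and the limits of FPKM without counts leave single genes without an error. No paired analysis was possible because each condition had 1 library.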
